A study of Homo sapiens with 9 samples.

Results

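The 37 genes of the human mitochondrial genome were examined in H295R cells, a steroid-producing line from an adrenocortical carcinoma. They are every gene that the deposited annotation places on chromosome MT, 37 of 60671 genes listed, and comprise 13 mRNAs, 2 rRNAs and 22 tRNAs. Polyadenylated RNA was sequenced from 3 groups of 3 libraries each: cells labelled SGPL1 OE, for overexpression of the gene of sphingosine-1-phosphate lyase, cells labelled SGPL1 KO, for its knockout, and WT cells. All groups were untreated and grown in the same medium, and the series' title asks about SGPL1 and metabolic rate in this cancer. The edit in the KO cells, the overexpression construct and whether each modified line is a single clone are stated nowhere in the labels.

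Mitochondrial DNA is transcribed from both strands as long precursors in which tRNAs lie between most mRNAs and rRNAs, and cutting out the tRNAs frees the other RNAs. The mRNAs encode core subunits of the respiratory chain complexes I, III and IV and of ATP synthase, and the rRNAs form the mitochondrial ribosome on which those mRNAs are translated. Steady-state levels of the mature RNAs differ from gene to gene although they leave the same precursor, because each RNA is stabilised and degraded on its own after cutting. Adrenocortical cells use mitochondria for the opening and closing steps of steroid synthesis as well as for ATP.

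Library totals ran from 8006873 to 10895080 counts, and 18634 to 19769 genes had a count. The adrenocortical genes STAR, CYP11A1, CYP17A1, NR5A1 and FDX1 had at least 400 counts in every library, and NR0B1 had 29 to 156. Among markers of fibroblasts, leukocytes, endothelium and epithelium, COL1A1 had 61 to 122 counts per library and EPCAM 90 to 293. The highest counts were 14 for DCN, 12 for CD14, 4 for VWF and 2 each for COL1A2, LYZ, PECAM1 and CDH5, and LUM, PTPRC, CD3E, KRT5 and KRT14 had 0. SGPL1 was at 98.1, 81.3 and 101.2 CPM (counts scaled to the size of the library) in the OE libraries, 47.2, 43.9 and 53.8 CPM in KO and 101.5, 83.4 and 98.1 CPM in WT. It fell in KO against WT (log2 fold change -0.97 ± 0.14, edgeR adjusted p = 0.000105) and did not differ beyond its error between the OE libraries and WT (-0.01 ± 0.14, adjusted p = 0.966). The counts go against the OE label as far as they cover the gene, so that group is called OE-labelled and its directions are given by label.

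All 13 mRNAs and both rRNAs had counts in every library, whereas 21 of the 22 tRNAs had no count in any library, a limit of 0.275 to 0.375 CPM per library for 3 counts. That limit holds only for reads that touch no other gene. The tRNA genes are 59 to 75 bases long and mostly adjoin other genes, so the limit does not bound their level. The tRNA with counts was MT-TP, at 63 to 227 counts. The plus strand carries 28 of the genes, among them 12 mRNAs and both rRNAs, and the minus strand carries MT-ND6 and 8 tRNAs, including MT-TP. Reads were counted without regard to strand, so at MT-ND6 and MT-TP transcripts of either strand cannot be told apart. Reads that touch more than 1 gene were left out, which removes those crossing from an mRNA into a neighbouring tRNA and those in the 46 bases that MT-ATP8 shares with MT-ATP6 or the 7 bases that MT-ND4L shares with MT-ND4.

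Chromosome MT took a larger share of counts in the OE-labelled libraries than in either other group. The share was 1.45%, 1.38% and 1.34% of all counts in the OE-labelled libraries, 0.80%, 0.946% and 0.858% in KO and 0.826%, 0.790% and 0.867% in WT. The OE-labelled libraries lay above all others, and KO and WT overlapped. The means were 1.39% ± 0.0555 in OE-labelled, 0.868% ± 0.0737 in KO and 0.828% ± 0.0388 in WT (SD, n = 3 each), which makes ratios of 1.68 for OE-labelled over WT, 1.60 for OE-labelled over KO and 1.05 for KO over WT. In bulk RNA, more mitochondrial genomes per cell, more transcript per genome and a shift in the kinds of cells cannot be told apart.

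Within every group the cytochrome c oxidase mRNAs had the 3 highest levels per length among the 16 mitochondrial genes with counts. The order is of what passed poly-A selection, and both rRNAs in it carry only short adenine tails. MT-CO3, a structural subunit, averaged 3309 ± 370 CPM per kb in the OE-labelled libraries, 1813 ± 132 CPM per kb in KO and 1686 ± 142 CPM per kb in WT. MT-CO2, which takes electrons from cytochrome c, averaged 2996 ± 566 CPM per kb in OE-labelled, 1622 ± 43.2 in KO and 1436 ± 37.1 in WT, and its libraries overlapped those of MT-CO3 in the OE-labelled group but not in KO or WT. MT-CO1, the catalytic subunit, followed at 1787 ± 173 CPM per kb in OE-labelled, 1309.7 ± 119 in KO and 1181 ± 77.9 in WT, and its libraries overlapped those of neither MT-CO2 nor the next gene in any group. At the low end stood MT-ND5, at 110.2 ± 41.3 CPM per kb in OE-labelled, 124 ± 30.2 in KO and 94.8 ± 26.6 in WT. MT-ATP8, at 94.2 ± 25.9 CPM per kb in OE-labelled, 93.7 ± 25.8 in KO and 57.3 ± 16.5 in WT, overlapped MT-ND5 in each group. MT-ATP8, a short membrane subunit of ATP synthase, lost reads where it meets MT-ATP6, and their part in its low level was not tested. MT-RNR2, the large-subunit rRNA, was the next gene after MT-CO1 in WT at 615 ± 16 CPM per kb, without overlap with either neighbour in that order, whereas in KO it came behind both MT-ND3 and MT-RNR1, at 409.8 ± 44.0 CPM per kb, overlapping MT-RNR1.

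**Figure D1:**
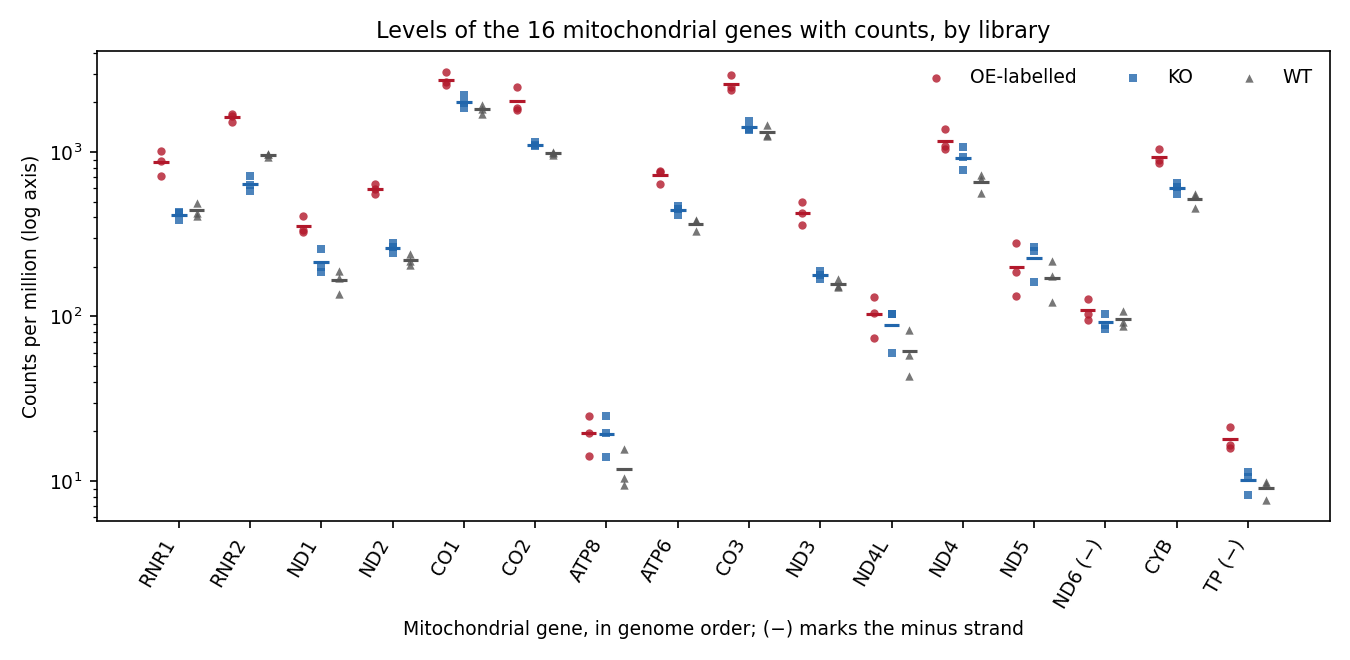
Level of each of the 16 mitochondrial genes with counts, in CPM on a log axis, in genome order. Points are libraries (3 per group) and bars are group means. The OE-labelled points lie above all WT points for 12 genes, and MT-RNR2 is the gene whose KO points lie below all WT points.

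The OE-labelled against WT comparison is, by its labels, 1 of SGPL1 overexpression, although SGPL1 counts did not differ beyond their error. Of the 16 mitochondrial genes tested, 13 rose and all 16 fold changes were positive, in an edgeR quasi-likelihood test that called 20.7% of the 14150 genes tested, 9.65% as higher and 11% as lower. These were 10 of 13 mRNAs, both rRNAs and MT-TP, and 12 of them had no overlap between the groups, as 17.8% of all genes had in that direction and 18.6% in the other. The median log2 fold change of the 13 mRNAs was 0.85, beside -0.01 over all genes tested. Each adjusted p below is from this test with Benjamini-Hochberg adjustment over all genes.

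The complex I mRNAs covered the whole range of fold changes. MT-ND2, an antiporter-like subunit of the proton-pumping arm, was at 640.0, 597 and 555 CPM in the OE-labelled libraries, against 238, 206 and 218 CPM in WT. MT-ND3, a small subunit at the joint of the complex's arms, was at 362, 494 and 426 CPM in the OE-labelled libraries, against 154, 169 and 152 CPM in WT. Neither gene's groups overlapped, and every OE-labelled library was well above the highest WT library. MT-ND2 rose by 1.44 ± 0.11 on the log2 scale (adjusted p = 1.64e-06) and MT-ND3 by 1.43 ± 0.12 (adjusted p = 4.67e-06), ranks 3 and 6 by p among all genes tested. MT-ND1, which lines the ubiquinone site, was at 407, 338 and 326 CPM in the OE-labelled libraries, against 188, 138 and 171 CPM in WT, and rose by 1.11 ± 0.15 (adjusted p = 0.000243).

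MT-ND4, another antiporter-like subunit, was at 1387, 1091 and 1039.5 CPM in the OE-labelled libraries, against 681, 560.5 and 722 CPM in WT, without overlap, and rose by 0.84 ± 0.14 (adjusted p = 0.000989). MT-ND4L, a small membrane subunit, was at 132, 73.6 and 105 CPM in the OE-labelled libraries, against 58.2, 43.7 and 83.2 CPM in WT. Its groups overlapped, and its rise of 0.75 ± 0.24 (adjusted p = 0.0397) was lost without OE-labelled replicate 1 (adjusted p = 0.15) or 3 (0.0791), WT replicate 1 (0.128) or 2 (0.11), or KO replicate 2 (0.0526). MT-ND5, the third antiporter-like subunit, was at 280.5, 133 and 185 CPM in the OE-labelled libraries, against 175, 122 and 218 CPM in WT. Its groups overlapped, with OE-labelled replicate 1 alone above all WT libraries. Its fold change of 0.22 ± 0.24 did not pass (adjusted p = 0.562), and the 95% interval of -0.29 to 0.73 does not reach the rise fitted for MT-ND1. Relative to MT-ND1 per length, MT-ND5 stood at 0.363, 0.208 and 0.300 in the OE-labelled libraries, 0.461, 0.538 and 0.662 in KO and 0.491, 0.465 and 0.672 in WT. All 3 OE-labelled ratios were below those of the other groups. MT-ND5 is 1812 bases long and MT-ND1 956, and over all genes fold changes fell with length in OE-labelled against WT. With a correction for gene length, the fold changes in that comparison were 0.06 for MT-ND5 and 0.92 for MT-ND1.

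The remaining plus strand mRNAs rose, apart from MT-ATP8, which lay close to the threshold. MT-CO2 was at 1791, 2494 and 1862 CPM in the OE-labelled libraries, against 1003, 989.9 and 954 CPM in WT, and rose by 1.06 ± 0.12 (adjusted p = 6.17e-05). MT-CO3 was at 2387, 2926 and 2469.6 CPM in the OE-labelled libraries, against 1264, 1449.5 and 1251 CPM in WT, and rose by 0.97 ± 0.11 (adjusted p = 6.17e-05). MT-CO1, which holds the oxygen-reducing centre, was at 3059, 2656 and 2553 CPM in the OE-labelled libraries, against 1834, 1695 and 1934 CPM in WT, and its rise of 0.60 ± 0.11 (adjusted p = 0.0015) was the smallest among the mRNAs called. MT-CYB, the cytochrome b of complex III, was at 1048, 859 and 894 CPM in the OE-labelled libraries, against 540.3, 457 and 555 CPM in WT, and rose by 0.85 ± 0.12 (adjusted p = 0.000256). MT-ATP6, which forms the proton path of ATP synthase, was at 755, 769 and 641 CPM in the OE-labelled libraries, against 381, 332 and 387 CPM in WT, and rose by 0.98 ± 0.11 (adjusted p = 7.52e-05). In all 5 genes the lowest OE-labelled library was above the highest WT library. MT-ATP8 was at 24.8, 14.1 and 19.6 CPM in the OE-labelled libraries, against 10.4, 9.41 and 15.8 CPM in WT. Its groups overlapped in 1 library of each, and its fold change of 0.72 ± 0.25 did not pass (adjusted p = 0.0524). It passed with upper quartile scaling (adjusted p = 0.0448), DESeq2 (0.0356), the replicate number as a block (0.017) and no filter (0.00571), and without WT replicate 3 (0.032), OE-labelled replicate 2 (0.0211) or KO replicate 1 (0.0413) or 3 (0.0469), but was 0.35 with a correction for gene length (adjusted p = 0.365).

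Both rRNAs rose as well. MT-RNR1, the small-subunit rRNA, was at 712, 1015 and 882 CPM in the OE-labelled libraries, against 426, 493 and 409 CPM in WT, a log2 fold change of 0.97 ± 0.13 (adjusted p = 0.00022). MT-RNR2 was at 1530.1, 1699.9 and 1666 CPM in the OE-labelled libraries, against 931, 970.5 and 977 CPM in WT, a log2 fold change of 0.77 ± 0.10 (adjusted p = 0.000253). Neither rRNA had overlapping groups. Mitochondrial rRNAs carry only short adenine tails, so their counts here are of what passed poly-A selection and not of all rRNA.

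**Figure D2:**
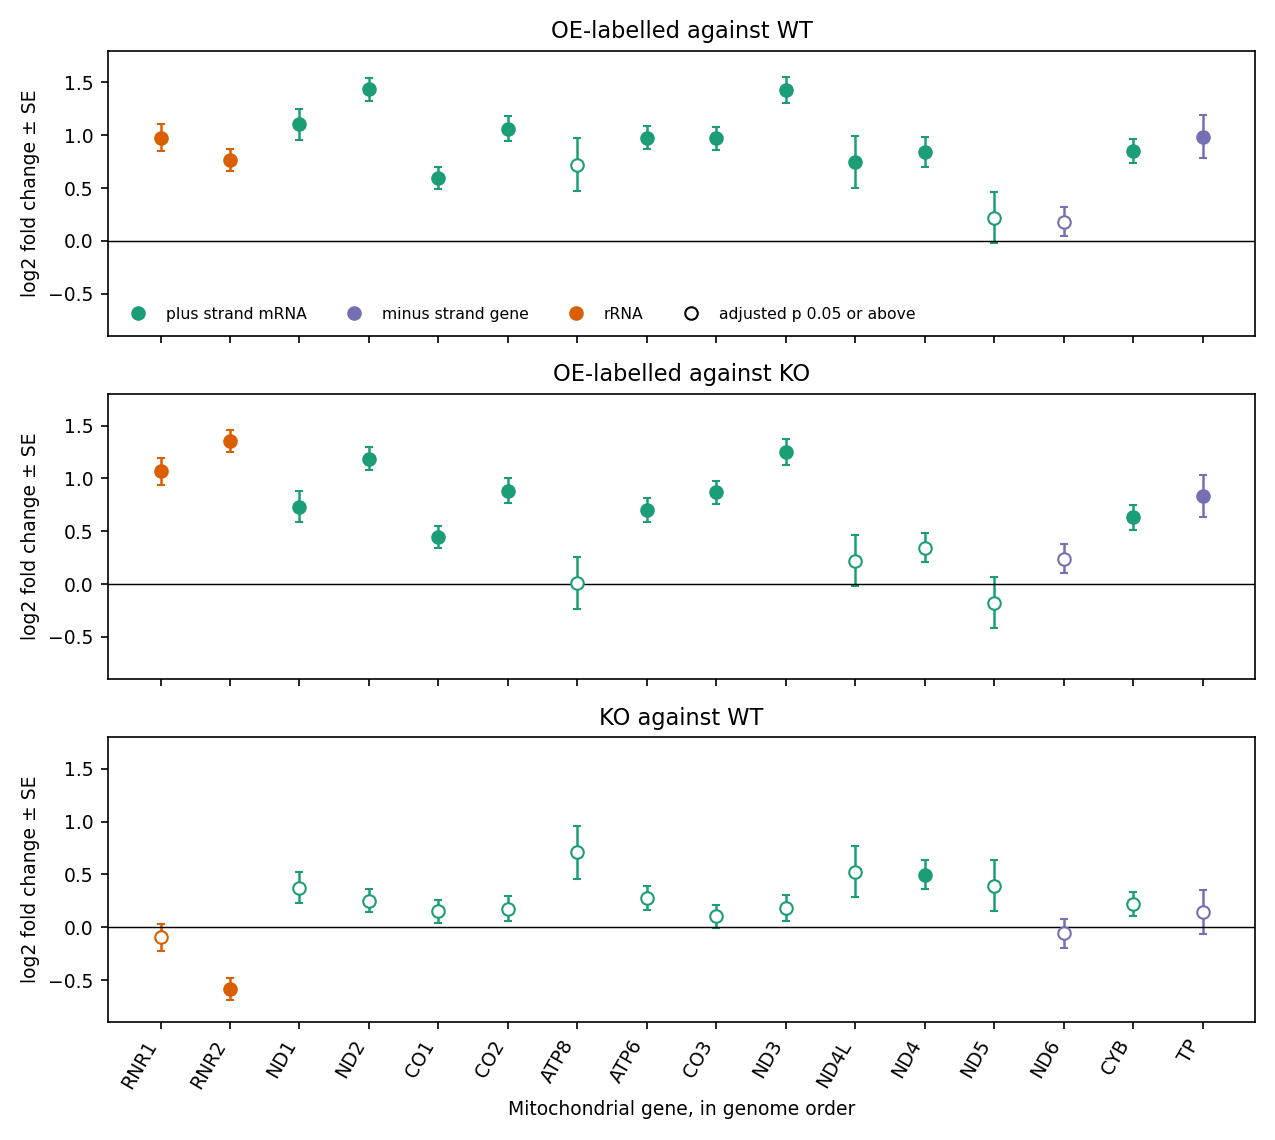
Log2 fold change with its standard error from the edgeR fit for the 16 mitochondrial genes with counts, in genome order, for each of the 3 comparisons. Filled points have an adjusted p under 0.05. In the upper panel 13 points are filled, all above 0, and in the lower panel MT-ND4 above 0 and MT-RNR2 below it.

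The KO against WT comparison asks what differs when SGPL1 is disrupted. Of the 16 mitochondrial genes tested, MT-ND4 rose and MT-RNR2 fell, where the same test called 18.8% of all genes, 9.16% as higher and 9.6% as lower. Of the 13 mRNAs, 12 had positive fold changes, with a median of 0.25 on the log2 scale beside -0.01 over all genes, and 5 lay above WT without overlap, as 17.6% of all genes did (17.6% also lay below). The comparison shares its WT libraries with that of the OE-labelled cells, so the 2 sets of fold changes are not independent.

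MT-RNR2 was at 576, 712 and 628 CPM in the KO libraries, against 931, 970.5 and 977 CPM in WT. All KO libraries were below all WT libraries. The log2 fold change was -0.59 ± 0.10 (adjusted p = 0.00066), and it stayed called when any library was left out, between -0.67 and -0.51. MT-RNR1, which lies just before MT-RNR2 on the same precursor, was at 431, 425 and 387 CPM in the KO libraries, against 426, 493 and 409 CPM in WT. Its groups overlapped, and its fold change of -0.09 ± 0.13 did not pass (adjusted p = 0.669). MT-ND4 was at 773, 1065 and 933 CPM in the KO libraries, against 681, 560.5 and 722 CPM in WT, without overlap. Its rise of 0.50 ± 0.14 (adjusted p = 0.0188) was lost without KO replicate 2 (adjusted p = 0.124), KO replicate 3 (0.0568) or WT replicate 2 (0.0799).

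The other mRNAs above WT without overlap in KO did not pass the test. MT-ND2 was at 242, 265 and 281 CPM in the KO libraries (0.25 ± 0.11, adjusted p = 0.123) and MT-ATP6 at 413, 469 and 450.5 CPM (0.28 ± 0.11, adjusted p = 0.094). MT-CO2 was at 1088, 1143 and 1097 CPM (0.18 ± 0.12, adjusted p = 0.337) and MT-ND3 at 169.7, 190.1 and 179 CPM (0.18 ± 0.12, adjusted p = 0.345). These lay just above the WT libraries given before. MT-CO1 in KO, at 1849, 2213 and 1996 CPM, MT-CO3, at 1374, 1540.2 and 1351 CPM, MT-CYB, at 552, 645 and 613 CPM, and MT-ND1, at 186, 258 and 199 CPM, overlapped WT. So did the shortest and least counted mRNAs, MT-ATP8 at 14.0, 19.5 and 24.7 CPM (0.71 ± 0.25, adjusted p = 0.061) and MT-ND4L at 59.9, 104 and 103 CPM (0.53 ± 0.24, adjusted p = 0.151), and MT-ND5 at 163, 264 and 250.3 CPM (0.39 ± 0.24, adjusted p = 0.291). MT-ATP8 passed here with DESeq2 (adjusted p = 0.0471), with only KO and WT in the fit (0.047), with the replicate number as a block (0.0203), with no filter (0.00769) and without KO replicate 1 (0.0248), OE-labelled replicate 2 (0.0316) or WT replicate 3 (0.0197).

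In the direct comparison of OE-labelled with KO libraries, 11 of the 16 mitochondrial genes rose and 15 had positive fold changes, where the test called 39.7% of all genes and 19% as higher. These were 8 mRNAs, both rRNAs and MT-TP, all without overlap, where 25.3% of all genes lay higher and 26.4% lower without overlap. The test called 20.6% of all genes as lower. MT-RNR2 rose by 1.35 ± 0.10 (adjusted p = 1.44e-07), MT-ND3 by 1.25 ± 0.12 (adjusted p = 1.58e-06), MT-ND2 by 1.19 ± 0.11 (adjusted p = 8.27e-07) and MT-RNR1 by 1.07 ± 0.13 (adjusted p = 1.13e-05). The median of the mRNAs was 0.63 on the log2 scale. MT-ATP8, MT-ND4L, MT-ND4, MT-ND5 and MT-ND6 did not pass, with MT-ND4 at 0.34 ± 0.14 (adjusted p = 0.0589) and MT-ND5 at -0.18 ± 0.24 (adjusted p = 0.594). MT-ND4 passed with upper quartile scaling (adjusted p = 0.0242), no filter (0.0124), only these groups in the fit (0.0456), the replicate number as a block (0.0409) and without KO replicate 2 (0.0382), OE-labelled replicate 2 (0.0335) or 3 (0.0426) or WT replicate 2 (0.0318), and its fold change was 0.05 with the length correction (adjusted p = 0.832). This comparison shares its libraries with the other 2.

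The only mRNA of the minus strand, MT-ND6, did not move with the plus strand mRNAs. MT-ND6, a membrane subunit of complex I whose human mRNA lacks a stable poly-A tail, was at 128, 103 and 95.6 CPM in the OE-labelled libraries, 89.2, 104 and 83.5 CPM in KO and 92.5, 87.7 and 108 CPM in WT. The 3 groups overlapped. Its log2 fold change was 0.18 ± 0.14 for OE-labelled against WT (adjusted p = 0.382, 95% interval -0.11 to 0.48) and -0.06 ± 0.14 for KO against WT (adjusted p = 0.826, interval -0.35 to 0.24). Per length and relative to the mean of the 12 plus strand mRNAs, MT-ND6 stood at 0.216, 0.163 and 0.173 in the OE-labelled libraries, 0.273, 0.271 and 0.236 in KO and 0.302, 0.296 and 0.345 in WT. No group overlapped another in this ratio. Its means were 0.184 ± 0.0285 in OE-labelled, 0.260 ± 0.0209 in KO and 0.314 ± 0.0271 in WT, or 0.585 for OE-labelled over WT, 0.708 for OE-labelled over KO and 0.827 for KO over WT. The contrast is with the plus strand mean and not with each gene of that strand. With the counts of all mitochondrial genes summed by strand, minus over plus overlapped between KO and WT, at 0.894 for KO over WT. The same measure gave 0.659 for OE-labelled over WT and 0.737 for OE-labelled over KO, both without overlap. MT-TP, the other minus strand gene with counts, rose by 0.98 ± 0.20 in OE-labelled against WT. Set against MT-ND5 alone, whose annotated end adjoins that of MT-ND6 on the opposite strand, the MT-ND6 ratio overlapped in all pairs of groups, with 1.00 for OE-labelled over WT and 0.732 for KO over WT.

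The balance of rRNA to mRNA separated KO from both other groups. The 2 rRNAs together had 0.181, 0.216 and 0.228 counts per mRNA count in the OE-labelled libraries, 0.145, 0.137 and 0.134 in KO and 0.205, 0.234 and 0.205 in WT. The KO libraries lay below all others, and OE-labelled and WT overlapped. The means were 0.208 ± 0.0246 in OE-labelled, 0.139 ± 0.00529 in KO and 0.215 ± 0.0167 in WT, a ratio of 1.5 for OE-labelled over KO, 0.647 for KO over WT and 0.972 for OE-labelled over WT. MT-RNR2 carried the separation: counted alone it gave 0.572 for KO over WT without overlap, and MT-RNR1 alone gave 0.808 with overlap. Per length, MT-RNR1 over MT-RNR2 was 0.761, 0.976 and 0.865 in the OE-labelled libraries, 1.22, 0.976 and 1.01 in KO and 0.748, 0.830 and 0.684 in WT. All KO ratios were above all WT ratios, while the OE-labelled range overlapped both.

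**Figure D3:**
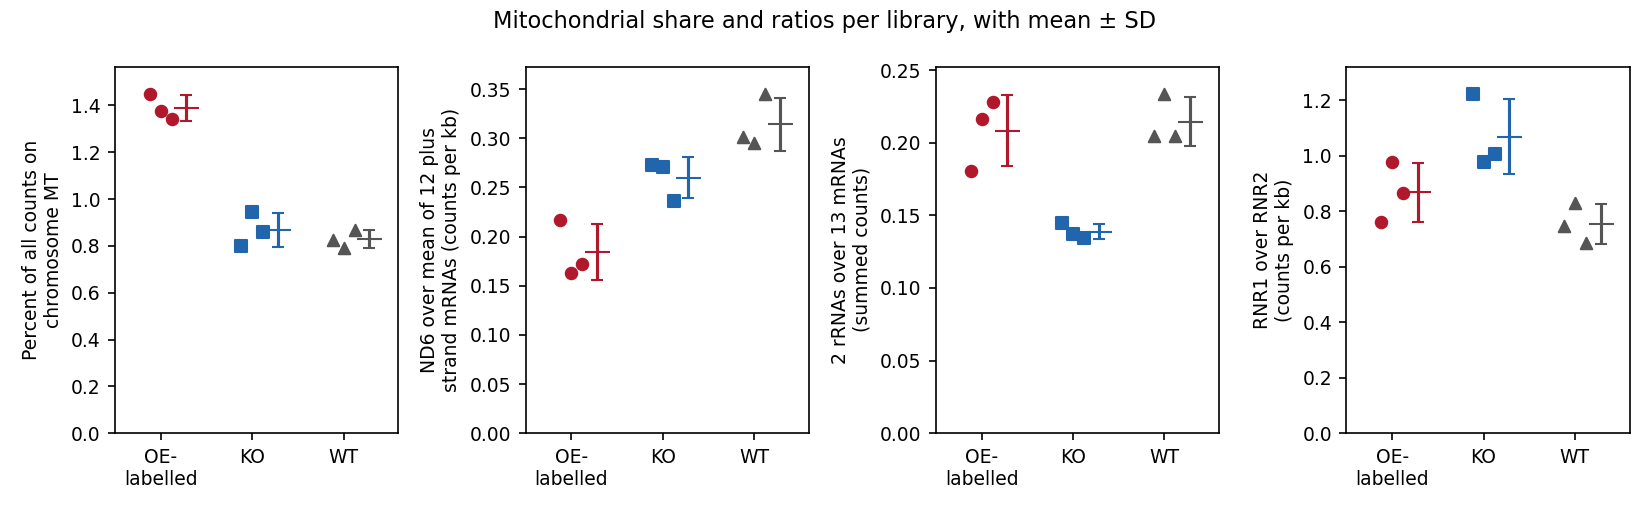
Share of counts on chromosome MT and 3 ratios between mitochondrial genes in each library, with the mean and SD of each group (3 libraries). The panels show the higher share in the OE-labelled libraries (mean 1.39%), MT-ND6 lowest against the plus strand mRNAs in the same group (0.184), and the rRNA ratio lowest in KO (0.139).

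The division of mRNA counts among the complexes did not separate the groups. Complex I took 24.6% ± 2.18 of mitochondrial mRNA counts in the OE-labelled libraries, 26.0% ± 1.66 in KO and 23.3% ± 1.85 in WT. Complex IV took 61.4% ± 3.00 in OE-labelled, 59.9% ± 1.66 in KO and 63.0% ± 2.63 in WT. The 3 groups overlapped in both shares. Single genes within complex I did not follow that total, since MT-ND2 made up 5.16%, 4.76% and 4.97% of mRNA counts in the OE-labelled libraries, against 3.60%, 3.29% and 3.22% in WT, without overlap.

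The ends of the mRNAs were compared because 6 of the 13 stop codons are incomplete in the genome and are finished by the adenines of the poly-A tail. The last 18 bases of 4 mRNAs, from GENCODE release 29 transcripts of the GRCh38 reference and not from these cells, show both kinds, with the bases of the stop codon in capitals. MT-ND1 (MT:4245-4262, plus strand) and MT-ND3 (MT:10387-10404, plus strand) end in part of a stop codon. MT-CO1 (MT:7428-7445, plus strand) and MT-ND6 (MT:14149-14166, minus strand) end in a whole one.
MT-ND1: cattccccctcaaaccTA
MT-ND3: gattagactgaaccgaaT
MT-CO1: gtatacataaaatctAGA
MT-ND6: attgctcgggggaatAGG
The 6 mRNAs with an incomplete stop (MT-ND1, MT-ND2, MT-CO3, MT-ND3, MT-ND4 and MT-CYB) had fold changes of 0.84 to 1.44 for OE-labelled against WT, with a median of 1.04 on the log2 scale. The 7 with a complete stop as annotated ran from 0.18 to 1.06, with a median of 0.72, so the 2 ranges overlapped. The 7 include MT-ATP6 (0.98), whose last annotated base is also the first of MT-CO3. For KO against WT the median was 0.24 with an incomplete and 0.28 with a complete stop. The incomplete stops adjoin a tRNA on the same strand in every case, so stop and neighbour cannot be told apart.

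MT-ATP8 and MT-ATP6 share 1 RNA, and the sequence of MT-ATP8 shows where their genes overlap. Capitals mark the bases shared with MT-ATP6 (MT:8527-8572, plus strand), and reads touching them were left out. Such reads also reach into the small letters, and with no read length stated the part that could be counted is unknown.
MT-ATP8: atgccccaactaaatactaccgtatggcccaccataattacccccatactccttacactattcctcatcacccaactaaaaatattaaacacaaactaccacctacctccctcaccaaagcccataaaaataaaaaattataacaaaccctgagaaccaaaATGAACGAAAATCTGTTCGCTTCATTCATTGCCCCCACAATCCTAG
MT-ATP8 held 0.112% to 0.200% of mRNA counts in the OE-labelled libraries, 0.201% to 0.327% in KO and 0.150% to 0.233% in WT, whereas MT-ATP6 held 5.73% to 6.13% in OE-labelled, 5.67% to 5.96% in KO and 5.30% to 5.75% in WT. Both reading frames lie on the same RNA, and the part of the omitted reads in the low count of MT-ATP8 was not tested.

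MT-TP, the proline tRNA gene, is the last gene before the control region and has a neighbouring gene on 1 side only. Its sequence, from the same reference (MT:15956-16023, minus strand), has the anticodon in capitals.
MT-TP: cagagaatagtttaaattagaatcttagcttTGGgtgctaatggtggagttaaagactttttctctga
MT-TP was at 15.8, 16.6 and 21.3 CPM in the OE-labelled libraries, 10.6, 11.3 and 8.24 CPM in KO and 9.61, 7.7 and 9.89 CPM in WT. The OE-labelled libraries lay above all others, and KO and WT overlapped. MT-TP rose in OE-labelled against WT (0.98 ± 0.20, adjusted p = 0.00375) and against KO (0.84 ± 0.20, adjusted p = 0.00352), and not in KO against WT (0.15 ± 0.21, adjusted p = 0.686). Transcripts running on from the plus strand past MT-CYB and MT-TT also cover this stretch, and their part in these counts was not tested. At 68 bases it is the shortest gene tested, and with counts corrected for gene length neither the rise against WT (0.34, adjusted p = 0.284) nor that against KO (0.05, adjusted p = 0.887) passed.

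Gene length moved with the groups. All genes tested were split into 5 classes of equal size by annotated exon length. In the shortest class (68 to 2655 bases), which holds all 16 mitochondrial genes tested, the median log2 fold change of OE-labelled against WT was 0.24, and 18.9% rose and 2.26% fell. In the longest class the median was -0.29. For KO against WT the same medians were -0.10 and 0.09. The median of the mitochondrial mRNAs thus stood above that of their length class in both comparisons, at 0.85 and 0.25. MT-ND5 (0.22) and MT-ND6 (0.18) were below the class median of 0.24 for OE-labelled against WT. The class has a median length of 1777 bases, and the mRNAs are 207 to 1812 bases long. With a correction for length fitted in each library, the median of the mRNAs was 0.67 for OE-labelled against WT, 0.33 for OE-labelled against KO and 0.38 for KO against WT. The number of mitochondrial genes called was then 11 for OE-labelled against WT and 8 for OE-labelled against KO, in place of 13 and 11, and 9 for KO against WT in place of 2. Those 9 were MT-RNR2, lower, and 8 mRNAs, higher: MT-ND1, MT-ND2, MT-ND3, MT-ND4, MT-CO2, MT-CO3, MT-ATP6 and MT-ATP8. Of all 14150 genes the corrected fit called 3226 for KO against WT in place of 2655, with 1819 higher and 1407 lower. It called 3010 for OE-labelled against WT (1839 higher) in place of 2924. For OE-labelled against KO it called 5383 (2774 higher) in place of 5612. MT-RNR2 in KO against WT was at -0.46 with the correction.

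**Figure D4:**
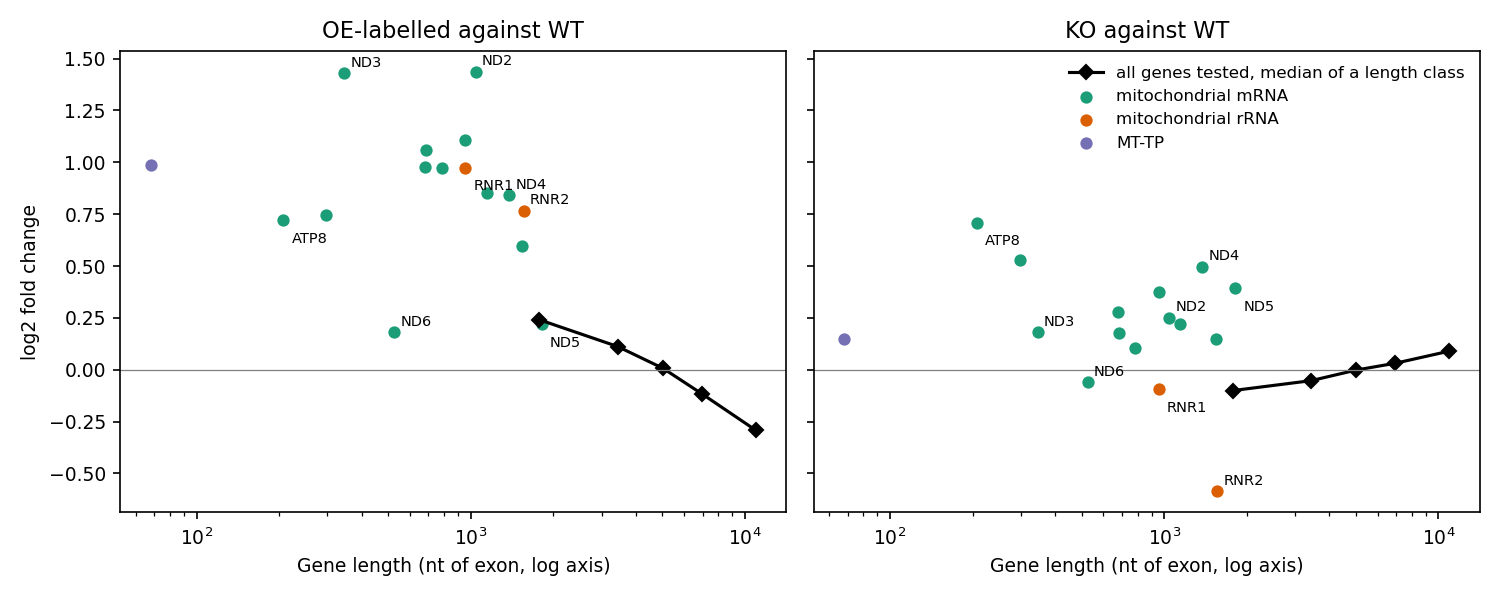
Log2 fold change against annotated exon length on a log axis, for the 16 mitochondrial genes tested (points) and for all genes tested (diamonds, the median of each length class), OE-labelled against WT on the left and KO against WT on the right. The diamonds fall with length on the left, where the shortest class is at 0.24, and rise on the right, where it is at -0.10, and most mitochondrial mRNAs lie above them.

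Close copies of mitochondrial genes in the nuclear genome add an uncertainty, since reads that map equally well to both were left out. Of 404 such copies listed, 373 had no count, and 4 had at least 100 counts over all libraries: MTATP6P1, MTCO1P12, MTND1P23 and MTND2P28, all on chromosome 1. Summed over all copies there were 3984, 3381 and 3854 counts in the OE-labelled libraries, 1984, 2680 and 2292 in KO and 2098, 1812 and 2005 in WT. That was 3.50% ± 0.242 of mitochondrial mRNA counts in OE-labelled, 3.35% ± 0.131 in KO and 3.51% ± 0.0920 in WT, a share that did not separate the groups. MTATP6P1 had 0.281 ± 0.0148 counts per MT-ATP6 count in the OE-labelled libraries, 0.309 ± 0.0224 in KO and 0.307 ± 0.00537 in WT. Its OE-labelled ratios lay below all WT ratios, and the other pairs of groups overlapped. MTND1P23 had 0.158 ± 0.0485 counts per MT-ND1 count in the OE-labelled libraries, 0.119 ± 0.0135 in KO and 0.134 ± 0.0219 in WT. For MTCO1P12 and MTND2P28 the mean ratios were between 0.038 and 0.05 over the OE-labelled, KO and WT groups. The OE-labelled ratios of MTCO1P12 lay above all of its KO ratios. All other pairs of groups overlapped for MTCO1P12, MTND2P28 and MTND1P23. These are reads placed on 1 copy alone, so they do not measure the reads that were lost, and the levels of mitochondrial genes with a close copy are uncertain by an unknown amount.

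The nuclear genes whose products sit in the same complexes were counted from lists of textbook members. For OE-labelled against WT, 19 of 34 complex I subunits tested rose, with a median log2 fold change of 0.50, as did 7 of 9 of complex III (0.53), 5 of 11 of complex IV (0.45) and 11 of 15 of ATP synthase (0.54), and 0 fell, also at an unadjusted p under 0.05 and by DESeq2 or limma-voom. Over all genes 9.65% rose and 11% fell, and in the shortest length class 18.9% rose and 2.26% fell. With library totals alone the numbers that rose were 10, 4, 1 and 8. For KO against WT edgeR called 0 of these 69 as higher, as did DESeq2 and limma-voom, with 2 at an unadjusted p under 0.05, beside 9.16% of all genes. The length correction called 1 complex III and 2 ATP synthase subunits as higher, and the fit with no filter 1 complex I subunit. In that comparison 2 of the 69 fell, beside 9.6% of all genes. Both were complex I subunits (NDUFA8 at -0.51 ± 0.14, adjusted p = 0.0163, and NDUFB6 at -0.42 ± 0.14, adjusted p = 0.0416). The length correction called 1 complex I subunit as lower, and upper quartile scaling called 3, with 1 of complex IV. The medians ran from -0.21 to -0.04, those of complex III and ATP synthase turning to 0.03 and 0.02 with the length correction. The mitochondrial mRNAs had a positive median in that comparison. For OE-labelled against KO, 25 of the 34 complex I subunits rose and 1 fell, and 8 of complex III, 10 of complex IV and 13 of ATP synthase rose, beside 19% of all genes and 32.9% of the shortest length class. Over all genes 20.6% fell in that comparison. The medians of the 4 complexes there were 0.65, 0.69, 0.66 and 0.57. With the length correction they were 0.45, 0.41, 0.36 and 0.37, and 26, 6, 7 and 9 rose. For OE-labelled against WT that correction gave medians of 0.38, 0.39, 0.29 and 0.47, and 19, 7, 4 and 10 rose.

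Genes that transcribe and copy mitochondrial DNA mostly did not pass, and their shares called were near or below those over all genes (9.65% higher and 11% lower for OE-labelled against WT, 9.16% and 9.6% for KO against WT). In OE-labelled against WT 1 of 14 rose, SSBP1, the single-strand DNA-binding protein of the replication fork (0.76 ± 0.11, adjusted p = 0.000497), and 1 fell, the replicative helicase gene TWNK (-0.50 ± 0.13, adjusted p = 0.0144). In KO against WT 1 fell, MGME1, an exonuclease that trims mitochondrial DNA ends (-1.15 ± 0.18, adjusted p = 0.000205). TFAM, which binds the promoters and packs the genome, was at 0.21 ± 0.12 in KO against WT (adjusted p = 0.273). In OE-labelled against KO it fell (-0.32 ± 0.12, adjusted p = 0.0467), as did TWNK (-0.50 ± 0.13, adjusted p = 0.00685). SSBP1 (0.81 ± 0.11, adjusted p = 5.15e-05) and MGME1 (0.94 ± 0.18, adjusted p = 0.000628) rose there. That made 2 higher and 2 lower of 14, beside 19% and 20.6% of all genes. Only 1 fell there with DESeq2 size factors, upper quartile scaling or no filter. Of 23 genes for processing and stability of mitochondrial RNA, 5 rose and 0 fell in OE-labelled against WT, against 6 and 0 by DESeq2 or limma-voom and 0 lower at an unadjusted p under 0.05. Over all genes 9.65% rose and 11% fell. They included SLIRP, whose product binds mitochondrial mRNAs together with LRPPRC (0.92 ± 0.17, adjusted p = 0.00177), and HSD17B10, a subunit of mitochondrial RNase P, which cuts the precursors at tRNAs (0.74 ± 0.16, adjusted p = 0.00558). In KO against WT 1 rose, FASTKD3 (0.68 ± 0.19, adjusted p = 0.0183), and 1 fell, FASTKD5 (-0.58 ± 0.16, adjusted p = 0.0154), both of a family of mitochondrial RNA-binding proteins.

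Outside chromosome MT, the genes whose log2 CPM followed the mean of the 13 mRNAs most closely over the 9 libraries were MTATP6P1, the nuclear copy named before (Pearson r = 0.979), MOCS3 (0.959), NUP88 (0.946), MRPL3 (0.944) and GRB14 (0.937). These were picked as the 5 highest of all genes tested, the libraries fall into 3 groups, and the values describe the libraries only. MRPL3, which encodes a protein of the large mitochondrial ribosomal subunit, was at 168, 142 and 161 CPM in the OE-labelled libraries, 113, 131 and 117 CPM in KO and 116, 103 and 102 CPM in WT.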

How the data were processed

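Per the labels' protocols, RNA was extracted with an RNeasy kit, poly-A selected, fragmented and reverse transcribed from random primers. For each of the 9 libraries the deposited values are raw counts of reads per gene in whole numbers. Per the file headers, featureCounts 1.5.2 made these counts from the Ensembl annotation, release 101, of GRCh38 with no option beyond annotation and output, so strand was ignored and reads in several places or several genes were left out. The submitters' processing notes list DESeq2, featureCounts 0.1.0, Subread, HISAT2 1.03 and FastQC, with a featureCounts version that differs from the headers. The labels state neither read length nor strand protocol.

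All genes were fitted together with edgeR 4.0.16 in R 4.3.3 (TMM, the filterByExpr filter at a count of 10, quasi-likelihood F test, 1 term for group over all 9 libraries), which left 14150 genes, 16 of them mitochondrial. Genes were called at a Benjamini-Hochberg adjusted p under 0.05. With 6 residual degrees of freedom, the common biological coefficient of variation came to 0.15 and the standard error of log2 fold changes to 0.187 at the median. CPM are counts scaled to the TMM-adjusted library total, and errors of levels are SDs over 3 libraries. The submitters call the replicates biological, but separate cultures are not described, so the p-values reflect only how these libraries vary, which may be technical. No 2 libraries of a group agreed within sampling noise. Shares and ratios over several genes are described by library without a test, as 3 against 3 libraries cannot give an exact p below 0.1. Limits from 3 counts cover counting error only.

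The members are every gene with chromosome MT in the annotation, with coordinates identical in GENCODE release 29 for 37 of 37. All mRNAs, rRNAs and tRNAs with counts are named, with up to 4 genes per list by adjusted p and the 5 genes outside chromosome MT most alike. Members and lists were chosen with earlier results of these data known. Alternatives were other scalings (DESeq2 1.42.0 size factors, upper quartile, library totals, scaling without chromosome MT), no count filter, DESeq2, voom of limma 3.58.1, only the groups compared, the replicate number as a block, a per-library length correction (a smooth curve of log2 level on log2 exon length) and leaving out each library. The tests were tried on simulated data.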

Additional observations from a re-analysis of the deposited data

How the results depend on the processing

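Of the calls for OE-labelled against WT, MT-ND4L (log2 0.43, adjusted p = 0.238, with the length correction) and MT-TP lost theirs under a change of processing, MT-ND4L also with library totals alone (adjusted p = 0.0931), and for OE-labelled against KO the length correction ended those of MT-CO1 (0.16), MT-CYB (0.33) and MT-TP (0.05); DESeq2, voom and the other scalings ended none of the mitochondrial calls. The cause was not tested. The number of mitochondrial genes called in KO against WT, 2, became 6 with no filter, 4 with the replicate number as a block, 9 with the length correction and 12 with both, and 1 to 4 when a library was left out. Over all genes the main fit called 2655 of 14150 there, and the fit with no filter 3007 of 27826. The block called 3235 of 14150, the length correction 3226 and both together 3712. For OE-labelled it was 12 to 14 against WT and 11 to 12 against KO when a library was left out, and 11 and 8 with the length correction. With the length correction, and with it and the block, the mRNA medians were 0.38 and 0.39 for KO against WT, 0.67 and 0.68 for OE-labelled against WT, and 0.33 and 0.31 for OE-labelled against KO. Same-numbered libraries of different groups correlated at -0.138 to 0.246, with a median of -0.010 for other pairs, which does not settle whether they are paired. The replicate block raised all genes called from 2924 to 3757 for OE-labelled against WT and from 2655 to 3235 for KO against WT. For OE-labelled against KO it raised them from 5612 to 6135. MT-ND6 over MT-ND5 gave 1.00 (OE-labelled over WT), 1.37 (OE-labelled over KO) and 0.732 (KO over WT) in place of the plus strand ratio. The rRNA ratio of KO over WT was 0.572 for MT-RNR2 and 0.808 for MT-RNR1, and that of OE-labelled over KO 1.32 for MT-RNR1. The share of counts, OE-labelled over KO, was 1.51 for mRNAs alone and 1.54 to 1.68 with a library left out. Signs changed only in values that did not pass in the main fit. With the length correction, then with it and the block, MT-ND6 in KO against WT became 0.078 and 0.093. In OE-labelled, MT-ND6 became -0.058 and -0.062 against WT and -0.14 and -0.15 against KO. MT-RNR1 in KO against WT became 0.046 and 0.047. In OE-labelled against KO, MT-ND4L became -0.22 and -0.28 and MT-ATP8 -0.50 and -0.53, the last of which was called lower (adjusted p = 0.0454). MT-ATP8 there was -0.045 with library totals and -0.20 to 0.22 with a library left out, and MT-ND5 -0.50 to 0.069, also 0.068 without OE-labelled and WT replicates 2 together, which was added after seeing the data. With a library left out, MT-ND5 in OE-labelled against WT ran from -0.10 to 0.46 and MT-ND6 in KO against WT from -0.15 to 0.033. Library totals alone moved the median of all genes to -0.129 in OE-labelled against WT, with 25.9% of calls higher in place of 46.7%, and left the mRNA median 0.86 above it. In all genes the length correction made 61.1% of those calls higher. Counts of all genes called ran from 1244 to 3673 for OE-labelled against WT and from 1764 to 3214 for KO against WT with a library left out. Depth limits MT-ATP8 and MT-TP. For the other tRNAs the 3-count limit holds only for reads that touch no other gene, so it does not bound their level.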
